A study of Homo sapiens with 8 samples.

Results

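A set of 7 tumour suppressor genes, whose loss recurs in renal carcinoma or in inherited kidney cancer, was followed in RNA-seq of 2 renal cell carcinoma (RCC) cell lines, among the 27776 genes listed in the deposited tables. These were VHL, PBRM1, SETD2, BAP1, FH, ARID1A and NF2. They were chosen by symbol, each matched 1 Ensembl identifier, and all 7 were listed in both tables and passed the filter on low values (a mean normalized read count of 1 or more in the line). The lines were 769-P and CAKI-1, established human lines that the labels describe as clear cell RCC. Each was kept for 16 hours with or without branched-chain amino acids (BCAA), which were isoleucine at 0.38 mM, leucine at 0.38 mM and valine at 0.17 mM. The series holds 2 libraries per line and condition, 8 in all. A figure legend of the study states a larger n for its RNA-seq. The study prepared its BCAA-free medium from amino acid-free RPMI with dialyzed serum. Before treatment 769-P was grown in RPMI and CAKI-1 in MEM, so that cell line and growth medium cannot be told apart, and each line stands for 1 tumour only.

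VHL is the substrate receptor of a ubiquitin ligase that marks the hydroxylated α subunits of the hypoxia-inducible factors (HIF) for degradation, and its loss is the founding event of most clear cell RCC. PBRM1 and ARID1A are subunits of SWI/SNF chromatin remodelling complexes, SETD2 trimethylates lysine 36 of histone H3 behind elongating RNA polymerase II, and BAP1 removes ubiquitin from histone H2A. FH (fumarate hydratase) is an enzyme of the tricarboxylic acid (TCA) cycle, and NF2 encodes merlin, a cortical protein that activates the Hippo kinases.

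VHL, SETD2, BAP1 and PBRM1 share the short arm of chromosome 3, which clear cell RCC commonly loses. In GRCh38 with GENCODE 29, VHL (ENSG00000134086) lies at chr3:10141008-10152220 on the forward strand. SETD2 (ENSG00000181555) at chr3:47016429-47163967, BAP1 (ENSG00000163930) at chr3:52401013-52410350 and PBRM1 (ENSG00000163939) at chr3:52545352-52685917 are on the reverse strand, with 135.002 kb between BAP1 and PBRM1. FH (ENSG00000091483) lies at chr1:241497603-241519761 on the reverse strand, ARID1A (ENSG00000117713) at chr1:26693236-26782110 on the forward strand and NF2 (ENSG00000186575) at chr22:29603556-29698598 on the forward strand. Exons of PBRM1 share 146 bases with SMIM4 on the other strand and those of ARID1A share 382 bases with the antisense gene AL512408.1. The strand setting of the counting is not given in the sources used here, so that reads in these stretches could belong to either gene.

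FH and NF2 were the genes of the 7 that passed the test in both lines (below 0.05 after adjustment), so the 250 bases before their RefSeq starts (GRCh38.p14, in the direction of the gene) are shown, with CCAAT boxes (CCAAT, or ATTGG on the other strand) and GC boxes (GGGCGG, or CCGCCC on the other strand) in capitals.
FH, chr1:241519756-241520005, reverse strand: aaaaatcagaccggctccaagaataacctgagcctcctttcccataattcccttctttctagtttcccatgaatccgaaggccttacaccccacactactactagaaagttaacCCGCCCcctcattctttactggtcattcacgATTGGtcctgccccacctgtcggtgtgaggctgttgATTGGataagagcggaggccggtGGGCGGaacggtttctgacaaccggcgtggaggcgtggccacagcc
NF2, chr22:29603306-29603555, forward strand: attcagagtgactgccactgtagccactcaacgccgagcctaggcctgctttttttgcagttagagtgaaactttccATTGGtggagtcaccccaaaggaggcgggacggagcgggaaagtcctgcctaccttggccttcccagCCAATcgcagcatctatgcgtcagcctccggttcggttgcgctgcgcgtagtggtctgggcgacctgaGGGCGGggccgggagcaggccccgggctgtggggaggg
Both stretches held 2 CCAAT boxes. Of 34943 promoter windows of this length in the table, 9.54% held 2 or more and 32.0% held 1 or more. FH held 2 GC boxes and NF2 held 1. Of all windows, 42.5% held at least 1 GC box and 24.3% held 2 or more. NF2 and PBRM1 each had 2 listed starts, and 1 window of each was used. Among the other genes with a window in the table, PBRM1 held 1 CCAAT box and no GC box, SETD2 held 1 GC box and ARID1A held 3, both without a CCAAT box. The matches describe letters in these windows and no binding was measured.

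The libraries held from 30979773 to 64256834 reads on listed genes. In 769-P the libraries with BCAA were the deeper ones (64256834 and 55829324 reads, against 39062721 and 40130258 without), so that depth and condition went together in that line. CAKI-1 libraries held 40473264 and 47054568 reads with BCAA and 41601676 and 30979773 without. Of 10 renal epithelial markers, 8 were at 1 RPM (1 read per 1000000 reads on listed genes) or more in all 4 libraries of 769-P and 6 in those of CAKI-1, where PAX2 and EMX2 were at 0 or not listed. None of 10 markers of other cell types (leukocyte, endothelial and muscle) reached that level in any line, and their summed level was between 0.498 and 1.10 RPM in 769-P and between 0.161 and 0.409 in CAKI-1. The summed renal epithelial markers were at 2093 to 2176 RPM with BCAA and 2970 to 3102 without in CAKI-1, and at 2983 to 3153 in 769-P. Most of the CAKI-1 sum was VIM, at a mean of 1658 RPM with BCAA and a log2 fold change of -0.65. The sum therefore follows VIM and does not stand for the list. Other markers moved both ways there, with log2 fold changes of 0.95 for CDH6, 0.16 for KRT8 and -0.27 for KRT18. The part of the markers in the results was not tested. The labels do not say that libraries of 1 condition came from separate cultures, so p-values measure the spread between libraries, which may be technical.

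The most marked difference between the lines among the 7 genes was that of VHL, which was close to absent from the 769-P libraries and well expressed in CAKI-1. In 769-P its normalized read count (reads divided by a size factor per library) was 14.4 and 3.42 with BCAA and 8.69 and 26.9 without. These values stood for 19, 4, 7 and 22 reads. CAKI-1 held 2548 and 2476 normalized reads of VHL with BCAA and 2588 and 2531 without. All 4 CAKI-1 libraries lay far above all 4 of 769-P. Over the libraries with BCAA, VHL took 23 of 120086158 reads in 769-P and 5595 of 87527832 in CAKI-1, a share 334-fold lower in 769-P. The fold varied with the library. Each 769-P library alone gave a fold of 216 (19 reads) or 893 (4 reads) with BCAA and of 360 (7 reads) or 118 (22 reads) without, against the mean of the CAKI-1 libraries of that condition. The tables were normalized separately and no test was made between lines, here or for any other level.

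The genes on either side of VHL were expressed in both lines. BRK1, the nearest protein-coding gene before VHL on the chromosome and a subunit of the WAVE actin-regulating complex, was at 110.2 to 139 RPM in 769-P and 114 to 138 in CAKI-1. IRAK2, the next gene after VHL and a kinase of Toll-like and interleukin-1 receptor signalling, was at 42.9 to 65.2 and 45.5 to 87.6 RPM. Both neighbours were thus expressed at overlapping levels in the lines. Further out this did not hold for every gene. SEC13 was at 39.3 to 62.6 RPM in 769-P and 98.5 to 130 in CAKI-1, and TATDN2 at 13.3 to 18.2 and 21.8 to 28.7. PRRT3 was at 0.15 to 0.42 and 1.68 to 2.24 RPM. The ranges of CRELD1, EMC3, FANCD2 and GHRL overlapped between the lines. Of 3962 genes at 50 or more RPM in every CAKI-1 library, 49 (1.24%) were under 1 RPM in every 769-P library, and VHL was the single gene among them from the lists described here. The cause of the low count was not tested.

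**Figure D1:**
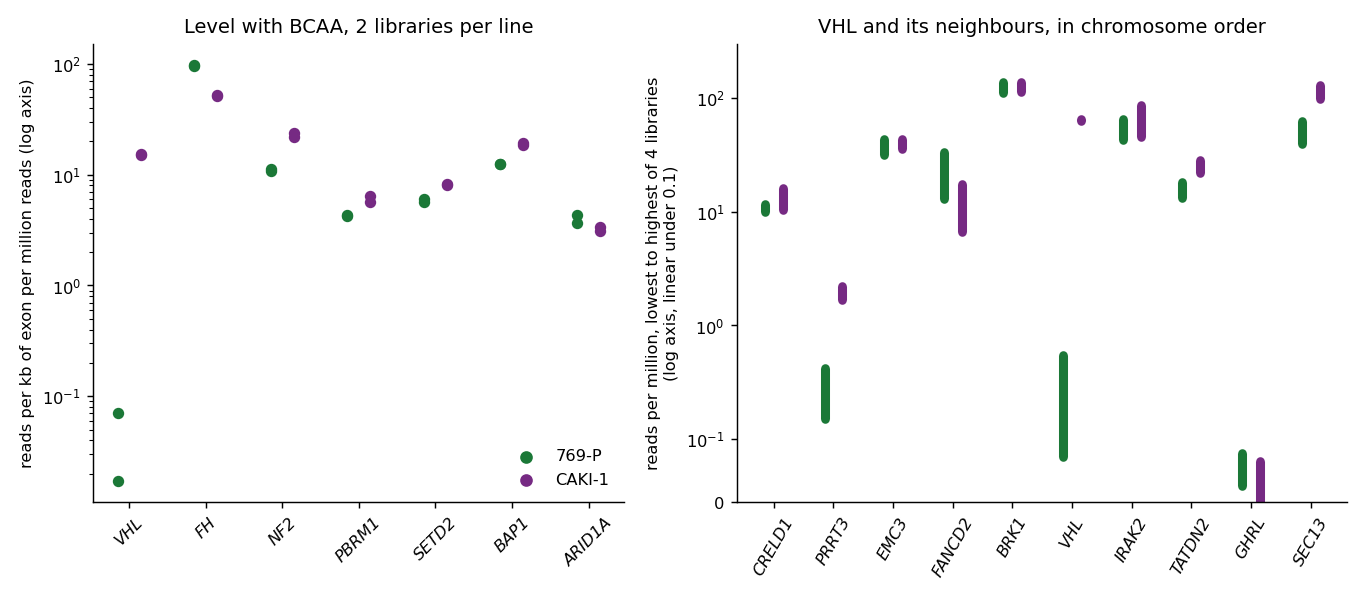
Left, level of the 7 genes with BCAA in RPKM (RPM per kilobase of merged exon, log axis), 1 point for each of 2 libraries per line. Right, level in RPM of VHL and the genes around it that both tables list, in chromosome order, as bars from the lowest to the highest of the 4 libraries of a line (log axis, linear under 0.1). VHL is at 0.0716 to 0.548 RPM in 769-P and 63.2 to 65.5 in CAKI-1, while BRK1 and IRAK2 on its sides overlap between the lines. Further out, PRRT3, TATDN2 and SEC13 are lower in 769-P.

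Levels of different genes were compared per length, in RPKM (RPM per kilobase of merged exon), in the libraries with BCAA. FH had the highest level in both lines, with a mean of 97.2 in 769-P and 51.5 in CAKI-1, above 97.8% and 95.5% of the genes tested in the lower of the libraries with BCAA. In 769-P it was followed by BAP1 (mean level 12.5), NF2 (11.1), SETD2 (5.88), PBRM1 (4.32), ARID1A (3.68 and 4.32 in its libraries) and VHL (0.0436). The libraries of PBRM1 and ARID1A overlapped, and those of every other pair of neighbours in this order were apart. In CAKI-1 the order of mean levels after FH was NF2 (22.8), BAP1 (19.1), VHL (15.2), SETD2 (8.20), PBRM1 (6.02) and ARID1A (3.23), with the libraries of all neighbours apart. VHL thus stood last in one line and in the middle of the other. By merged exons, PBRM1 and ARID1A were at the low end of both orders. With the longest transcript in place of merged exons (8583 bases in place of 15928 for ARID1A), 11 of the 14 places were kept. The places that changed were in 769-P, where ARID1A then came above SETD2 and PBRM1. The low place of ARID1A in that line therefore depends on the length used.

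Between the lines, the level of FH with BCAA was 1.89-fold higher in 769-P, and that of NF2 was 2.05-fold higher in CAKI-1. The 3 chromatin genes of chromosome 3 were all higher in CAKI-1, PBRM1 by 1.40-fold, SETD2 by 1.39-fold and BAP1 by 1.53-fold in the level with BCAA. For NF2 and these 3 genes, as for VHL, the RPM values of all 4 libraries of 769-P lay below those of all 4 of CAKI-1. ARID1A had the opposite order, with all 769-P libraries above all CAKI-1 libraries and a level 1.24-fold higher with BCAA. FH overlapped between lines once the libraries without BCAA were counted. In bulk RNA a lower level could be fewer cells with the transcript or fewer transcripts per cell, and these cannot be told apart.

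The study compared cells with and without BCAA, and this comparison was made within each line with limma on log2(normalized read count + 1), adjusted by the Benjamini-Hochberg method over all genes tested. The added 1 makes fold changes of scarce transcripts too small. In 769-P, FH and NF2 were higher with BCAA, 2 of 7 genes, where 20.3% of the 22391 genes tested were higher. None was lower, where 18.2% of all genes were. In CAKI-1 the same 2 of 7 were higher, where 10.8% of 21347 genes were higher, and none was lower, where 9.05% were. No further gene of the 7 had an unadjusted p under 0.05 in either line, and edgeR and DESeq2 each called 2 higher and 0 lower in each line. Without regard to the test, the libraries with BCAA lay above those without for 3 of the 7 genes and below for 1 in 769-P, where 33.6% of all genes lay above and 33.5% below. In CAKI-1 they lay above for 4 and below for 0, where 28.9% lay above and 28.8% below. Being higher in both lines was a property of 8.53% of the 19406 genes tested in both. The median log2 fold change of the 7 genes was 0.10 in 769-P and 0.13 in CAKI-1, beside -0.02 and -0.0085 over all genes tested. With so few genes these shares are a description and nothing particular to the list follows from them.

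**Figure D2:**
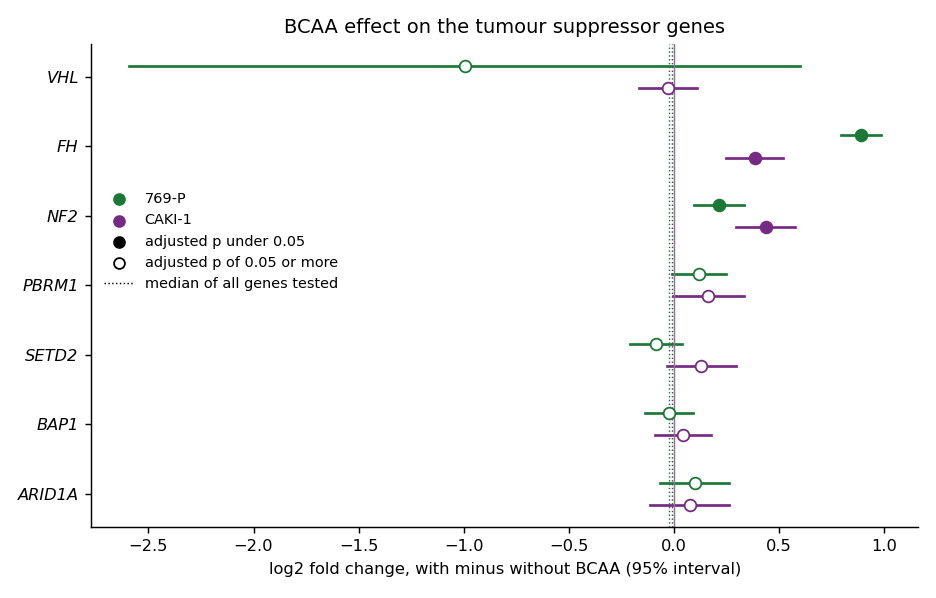
Log2 fold change of each gene with BCAA minus without (points) with its 95% interval (lines) in 769-P and CAKI-1 from limma, filled where the adjusted p was under 0.05. FH and NF2 are filled in both lines, at 0.89 and 0.39 and at 0.22 and 0.44. VHL in 769-P has the widest interval, from -2.59 to 0.60.

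FH, which hydrates fumarate to malate, had the clearest change. In 769-P its normalized read count was 10030.4 and 10048.6 with BCAA and 5409 and 5408 without. The libraries of each condition were almost equal and the conditions did not overlap. FH rose 1.86-fold, with a log2 fold change of 0.89 (SE 0.04, 95% interval 0.80 to 0.99, limma with Benjamini-Hochberg adjustment, adjusted p = 1.25e-08). In CAKI-1 its normalized read count was 4389 and 4282 with BCAA and 3425 and 3209 without. Both libraries with BCAA again lay above both without, by a smaller margin. There FH rose 1.31-fold, with a log2 fold change of 0.39 (SE 0.06, 95% interval 0.25 to 0.52, limma adjusted p = 0.00115). The BCAA effect on FH was larger in 769-P than in CAKI-1 by 0.51 on the log2 scale (SE 0.07, interval 0.35 to 0.66, limma interaction term, adjusted p = 0.000195), and 21.1% of 19406 genes had such a difference, 10.9% toward a higher effect in 769-P and 10.1% toward a lower one. Among genes with a mean normalized read count of at least 100, 6.03% of 11855 had a larger log2 fold change than FH in 769-P and 10.6% of 11720 in CAKI-1.

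NF2 also rose in both lines, with a smaller log2 fold change than FH in 769-P and one of similar size in CAKI-1. Its normalized read count in 769-P was 3953 and 3713 with BCAA and 3226 and 3376 without. The conditions did not overlap, and the log2 fold change was 0.22 (SE 0.05, 95% interval 0.10 to 0.33, limma adjusted p = 0.00771), a 1.16-fold rise. CAKI-1 held 6713 and 6099.9 normalized reads of NF2 with BCAA and 4653 and 4799 without. There too the conditions were apart, with a 1.35-fold rise and a log2 fold change of 0.44 (SE 0.06, 95% interval 0.30 to 0.58, limma adjusted p = 0.000644). The difference of the effect between lines, -0.22 on the log2 scale, did not pass the test (SE 0.08, interval -0.40 to -0.04, limma interaction term, adjusted p = 0.0798). Without replicate 2 with BCAA of CAKI-1 it passed (limma adjusted p = 0.0223), and in the other 7 fits without 1 library it did not (up to 0.247). In 769-P, 33.3% of the genes with a mean of at least 100 had a larger log2 fold change than NF2, and in CAKI-1 8.71% had.

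These calls rested on both libraries of each condition. With any 1 library left out, the lone library being assumed to vary like the pair, FH in 769-P kept its call (limma adjusted p from 0.0288 to 0.0399), while NF2 lost its call in 769-P (0.0895 to 0.182) and in CAKI-1 (0.0709 to 0.231) and FH lost it in CAKI-1 (0.0938 to 0.231). Their log2 fold changes stayed above 0 in every such fit, from 0.17 to 0.26 for NF2 in 769-P, from 0.37 to 0.51 for NF2 in CAKI-1 and from 0.34 to 0.43 for FH in CAKI-1.

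**Figure D3:**
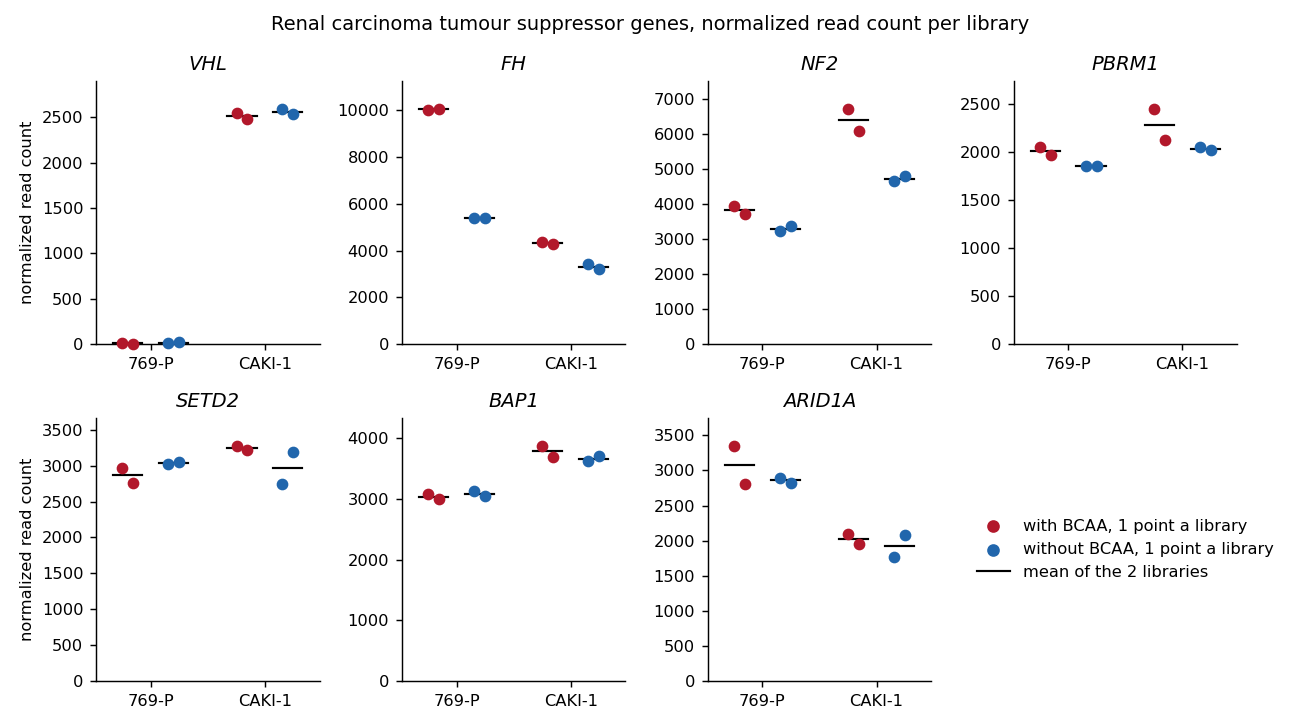
Normalized read count of each gene (vertical axis, from 0) in each library of 769-P and CAKI-1, with BCAA in red and without in blue, and the mean of 2 libraries as a line. FH and NF2 have both red points above both blue points in each line, FH in 769-P being at 10030.4 and 10048.6 against 5409 and 5408, and VHL in 769-P lies at the axis.

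The other 5 genes did not pass the test in either line. PBRM1, the bromodomain subunit of the PBAF form of SWI/SNF, had 2051 and 1969 normalized reads with BCAA and 1851 and 1849 without in 769-P, and 2445 and 2123 against 2048 and 2018 in CAKI-1. In both lines the libraries with BCAA were above those without, as were those of 33.6% of all genes tested in 769-P and 28.9% in CAKI-1. The log2 fold change of PBRM1 was 0.12 (SE 0.06, limma adjusted p = 0.14) in 769-P and 0.16 (SE 0.08, limma adjusted p = 0.173) in CAKI-1. The 95% intervals ended at 0.25 in 769-P, above the log2 fold change of NF2 there, and at 0.33 in CAKI-1, below that of NF2.

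SETD2 had 2968 and 2759 normalized reads with BCAA and 3019.6 and 3054 without in 769-P. Both libraries with BCAA lay below both without, as for 33.5% of all genes, and the log2 fold change was -0.09 (SE 0.06, limma adjusted p = 0.27). In CAKI-1 the values were 3276 and 3225 with BCAA and 2751 and 3197 without, the opposite order, with a log2 fold change of 0.13 (SE 0.08, limma adjusted p = 0.266). The difference between lines was -0.22 (limma interaction term, unadjusted p = 0.0449, adjusted p = 0.143). It reached -0.33 and passed without replicate 2 without BCAA of CAKI-1 (limma adjusted p = 0.0288), and in the other 7 fits without 1 library it did not pass (up to 0.474).

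BAP1 had the log2 fold change nearest to 0 of the 7 genes in 769-P. Its normalized read count was 3081 and 3001 with BCAA against 3134 and 3046 without in 769-P. In CAKI-1 it was 3876 and 3693 against 3621 and 3715. The conditions overlapped in both lines, the log2 fold changes were -0.02 (95% interval -0.14 to 0.09) and 0.04 (-0.09 to 0.18), and the limma adjusted p was 0.774 and 0.672.

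ARID1A, the DNA-binding subunit of the BAF form of SWI/SNF, had 3349 and 2801 normalized reads with BCAA and 2887 and 2826 without in 769-P. CAKI-1 held 2096 and 1949.6 with BCAA and 1763 and 2083 without. The conditions overlapped in both lines. The log2 fold changes were 0.10 (SE 0.07, limma adjusted p = 0.335) and 0.08 (SE 0.09, limma adjusted p = 0.6), and in each line leaving out a single library turned the sign, to -0.03 in 769-P (without replicate 1 with BCAA) and to -0.04 in CAKI-1 (without replicate 1 without BCAA).

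For VHL itself, CAKI-1 gave a log2 fold change of -0.03 with a 95% interval of -0.17 to 0.11 (limma adjusted p = 0.817). In 769-P the fitted value of -0.99 (SE 0.73, limma adjusted p = 0.326) came from between 4 and 22 reads a library, with overlapping conditions. A change of VHL in 769-P was not detectable at this depth. Without replicate 1 with BCAA of 769-P, the difference of the VHL effect between lines passed the test (limma interaction term, adjusted p = 0.0395), and in the other 7 fits without 1 library it did not (up to 0.955).

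The genes that work with VHL were taken from a list of 12, of which 11 passed the filter in 769-P and 12 in CAKI-1. In 769-P 3 rose and 2 fell, and in CAKI-1 0 rose and 2 fell by limma, where 3 had an unadjusted p under 0.05 for a rise and edgeR and DESeq2 each called 0. For this list and those below, the shares of all genes tested were 20.3% higher and 18.2% lower in 769-P. In CAKI-1 the shares were 10.8% higher and 9.05% lower. EPAS1, which encodes HIF-2α, carried the largest change of the list. Its normalized read count in 769-P was 825 and 823 with BCAA and 7410.4 and 7807 without, a 9.22-fold fall (log2 fold change -3.20, SE 0.06, limma adjusted p = 9.3e-12). In CAKI-1 EPAS1 was at 2292 and 2935 with BCAA and 4049.6 and 4439.6 without, a 1.63-fold fall (log2 fold change -0.71, SE 0.10, limma adjusted p = 0.000554). The effect in 769-P was lower than that in CAKI-1, by a difference of -2.50 on the log2 scale (limma interaction term, adjusted p = 3.48e-08). HIF1A, encoding HIF-1α, did not pass in either line, with log2 fold changes of -0.27 and -0.06. The elongin and RING subunits of the VHL ligase moved little. ELOC rose by 0.27 (limma adjusted p = 0.000773) and RBX1 by 0.24 on the log2 scale in 769-P, and ELOB fell by 0.22 in CAKI-1. With any 1 library of 769-P left out, the log2 fold change of RBX1 there ranged from 0.16 to 0.33. Its call needed both libraries of each condition. So did those of SMARCA4, SMARCC1, SMARCE1, PCGF6, MBD5, MOB1A and RHEB in 769-P, given below, and all calls in CAKI-1. Other calls in 769-P held in some of these fits and not in others. These were the calls of ELOC, SMARCD3, BICRAL, BCL7A, ASH1L, ZMYND11, NSD2, IDH3A, OGT, MORF4L1, AMOTL1, AMOTL2, FRMD6 and KMT2D.

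HIF target genes were lower with BCAA in 769-P, the line with little VHL transcript. Of 11 tested there, 8 fell and 0 rose by limma, with 0 rising at an unadjusted p under 0.05 and 0 by edgeR or DESeq2, and the median log2 fold change was -1.20. In CAKI-1 3 fell and 1 rose by limma, with a median of -0.09, and DESeq2 called 1 of the list lower there. VEGFA, the endothelial growth factor, was at 2621 and 2533 normalized reads with BCAA and 24271 and 24144 without in 769-P, a 9.39-fold fall (log2 fold change -3.23). In CAKI-1 it was at 1368 and 1878 with BCAA and 2029 and 2257 without, a log2 fold change of -0.42. This became -0.19 without replicate 1 with BCAA and -0.65 without replicate 2 with BCAA. NDRG1, a stress-responsive gene, fell by 2.98 on the log2 scale in 769-P and by 1.16 in CAKI-1. LOX, which cross-links collagen, rose in CAKI-1 by 0.33 on the log2 scale. The difference between lines passed the limma interaction test for 6 of 11 HIF target genes, all with the larger fall or the lower effect in 769-P. Of all genes tested in both lines, 10.1% passed it with a lower effect in 769-P. CA9 was not listed in either table. The part of VHL or of EPAS1 in these values was not tested.

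The TCA cycle enzymes other than FH rose with it in 769-P. Of 17, 16 rose and 0 fell by limma, with 0 falling at an unadjusted p under 0.05 and 0 by edgeR or DESeq2. Their median log2 fold change was 0.39. Fewer of the 17 were called higher with any 1 library of 769-P left out. In CAKI-1 3 of 17 rose and 0 fell (1 had an unadjusted p under 0.05 for a fall, and edgeR and DESeq2 called 0), with a median of 0.12. FH had the third largest log2 fold change of the 18 enzymes in 769-P and the second largest in CAKI-1. IDH2, the mitochondrial isocitrate dehydrogenase that uses NADP, came first in both. Its normalized read count was 5598 and 5920.04 with BCAA and 2435 and 2577 without in 769-P, a 2.30-fold rise, and 1006 and 1050.1 against 681 and 674 in CAKI-1, a 1.52-fold rise. SUCLG1, a subunit of succinyl-CoA ligase, rose by 0.90 on the log2 scale in 769-P and had a log2 fold change of 0.12 in CAKI-1 (limma adjusted p = 0.294). IDH3A, a subunit of the NAD-dependent isocitrate dehydrogenase, rose by 0.71 and 0.37. The log2 fold change was higher in 769-P than in CAKI-1 for 10 of the 17 enzymes by the limma interaction term and lower for 0 (0 at an unadjusted p under 0.05, 0 by edgeR or DESeq2). By the same term it was higher for 10.9% and lower for 10.1% of all genes tested in both lines.

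**Figure D4:**
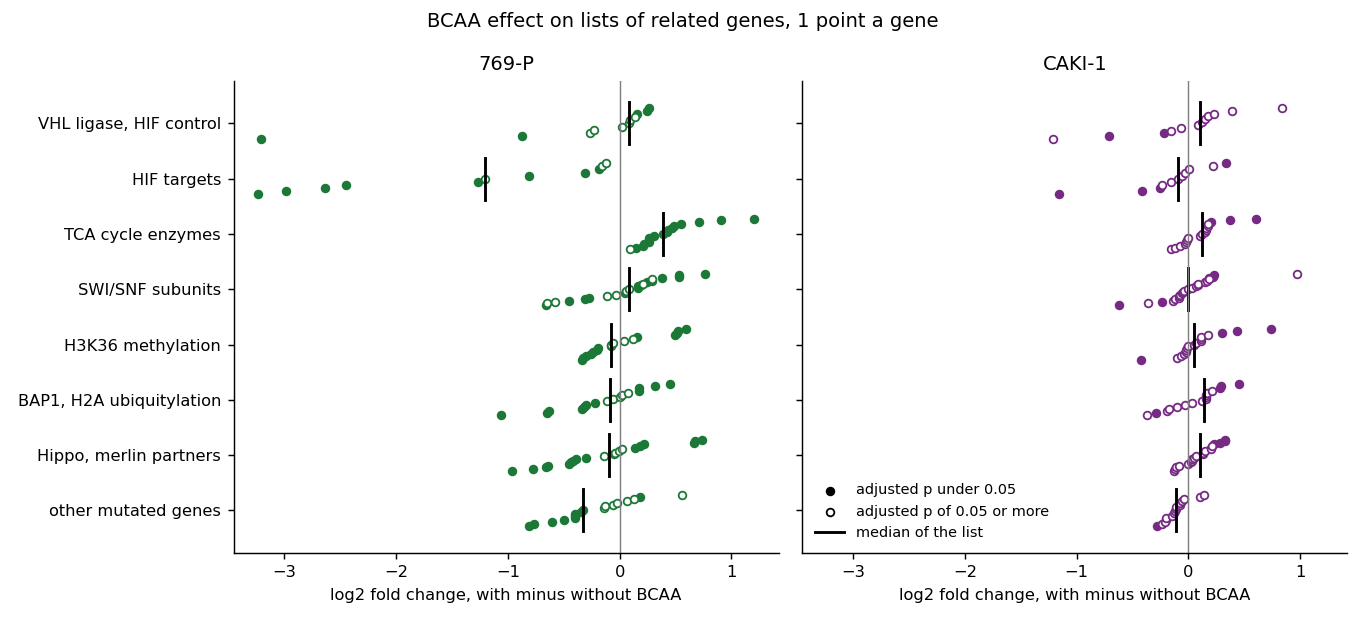
Log2 fold change with BCAA minus without for every tested gene of 8 lists of related genes, in 769-P (left) and CAKI-1 (right), filled where the limma adjusted p was under 0.05, with the median of each list as a bar. In 769-P the HIF target genes lie to the left (median -1.20) and the TCA cycle enzymes to the right (median 0.39), and in CAKI-1 the medians are -0.09 and 0.12.

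SWI/SNF subunits other than PBRM1 and ARID1A moved both ways. Of 23 tested in each line, 9 rose and 4 fell in 769-P (median log2 fold change 0.08), and 3 rose and 2 fell in CAKI-1, with a median of -0.0026. SMARCA4, a catalytic ATPase, rose in both lines, by 0.24 and 0.23 on the log2 scale, and so did the core subunit SMARCC1, by 0.17 and 0.22. SMARCD3 and SMARCE1, which are also subunits, rose by 0.76 and 0.53 in 769-P and had log2 fold changes of -0.06 and -0.04 in CAKI-1, and both differences between lines passed the limma interaction test (adjusted p = 0.00131 and 0.000195). BICRAL, a subunit of the GBAF form, fell in both lines, by 0.66 and 0.62, and BCL7A fell by 0.46 in 769-P. DPF2, a reader of acetylated histones, fell by 0.24 in CAKI-1. It resembled VHL in its level, with 28.2 to 66.0 normalized reads in 769-P and 3330.1 to 4045 in CAKI-1, an observation made after its values were seen. SMARCB1 was not listed in either table.

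Around SETD2, 17 other writers, erasers and readers of H3K36 methylation were tested. In 769-P 5 rose and 7 fell, and in CAKI-1 3 rose and 1 fell. The mismatch repair protein MSH6, which binds the trimethylated mark, rose by 0.59 in 769-P and by 0.44 in CAKI-1 on the log2 scale. NSD2, which places the dimethyl mark, rose by 0.16 in 769-P and 0.74 in CAKI-1, with the larger effect in CAKI-1 (difference -0.58, limma interaction term, adjusted p = 0.000108). With any 1 library of 769-P left out, its rise there was 0.089 to 0.23, and the call did not hold in every such fit. MORF4L1, a chromodomain reader, rose by 0.52 in 769-P, where the methyltransferase ASH1L fell by 0.34 and the reader ZMYND11 by 0.33. KDM4C, a demethylase, fell by 0.43 in CAKI-1.

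Among 16 tested BAP1 partners and genes of H2A ubiquitylation, 4 rose and 7 fell in 769-P, and 3 rose and 1 fell in CAKI-1, where edgeR called 3 lower. OGT, the O-GlcNAc transferase that binds the BAP1 complex, had 5056 and 5191 normalized reads with BCAA and 11691 and 9829 without in 769-P, a 2.09-fold fall (log2 fold change -1.06). In CAKI-1 its log2 fold change was -0.18 (limma adjusted p = 0.0522), and the difference passed the limma interaction test (adjusted p = 2.48e-05). The polycomb subunit PCGF6 rose in both lines, by 0.45 and 0.29, while its relative PCGF5 fell by 0.65 in 769-P. MBD6 fell in both lines, by 0.63 and 0.29, and MBD5 rose by 0.31 in 769-P. HCFC1, a cofactor that BAP1 binds directly, rose by 0.46 in CAKI-1. ASXL3 and RING1 were not listed in either table.

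Of 20 genes of the Hippo cascade and merlin's partners, 6 rose and 9 fell in 769-P. In CAKI-1 5 rose and 0 fell by limma, with 1 falling at an unadjusted p under 0.05 and 0 by edgeR or DESeq2. The kinase STK3 and the cascade gene MOB1A rose by 0.32 and 0.33 on the log2 scale in CAKI-1. In 769-P MOB1A rose by 0.18 and STK3 had a log2 fold change of -0.0084. WWTR1, the coactivator TAZ, was at 37548 and 36446 normalized reads with BCAA and 22208 and 22158 without in 769-P, a 1.67-fold rise, and had a log2 fold change of 0.21 in CAKI-1 (limma adjusted p = 0.0579). The angiomotins, which bind merlin, went apart in 769-P, where AMOT and AMOTL1 rose by 0.67 and 0.66 and AMOTL2 fell by 0.96, and FRMD6 fell there by 0.78. The difference between lines passed the limma interaction test for 13 of the 20 genes, 3 with the log2 fold change higher in 769-P and 10 with it lower, among them AMOTL2 and FRMD6. Of all genes tested in both lines 21.1% passed it, 10.9% with the log2 fold change higher in 769-P and 10.1% with it lower.

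The 17 other genes mutated in renal carcinoma were mostly lower with BCAA in 769-P, where 1 rose and 9 fell (median log2 fold change -0.33). Fewer of them were called lower with any 1 library of 769-P left out. In CAKI-1 16 were tested, of which 0 rose by limma (1 at an unadjusted p under 0.05, 0 by edgeR and DESeq2) and 2 fell. TSC2, a brake on the mTORC1 kinase, fell in both lines, by 0.77 and 0.29 on the log2 scale, and the mTORC1 activator RHEB rose by 0.18 in 769-P. The histone methyltransferase KMT2D fell by 0.81 in 769-P, and the cohesin subunit STAG2 fell by 0.20 in CAKI-1. Over all 132 genes tested in the 8 lists, 44 rose and 46 fell in 769-P, and 18 rose and 11 fell in CAKI-1. Of all genes tested, 20.3% rose and 18.2% fell in 769-P, and 10.8% rose and 9.05% fell in CAKI-1. The CAKI-1 split of the lists became 28 and 7 when the libraries were centred on their medians.

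Genes were also ranked by how closely their log2 values followed each of the 7 over the 8 libraries, after centring each table on its mean, among 10881 genes with a mean of at least 100 in both tables. FH was nearest to MAGED1, at a Euclidean distance of 0.0887, and to PAICS, an enzyme of purine synthesis, at 0.0997. Nearest to NF2 were DDX3X, an RNA helicase, at a distance of 0.055, and CKAP5, a microtubule protein, at 0.0656. PBRM1 was nearest to CTNND1 (0.0332) and PIK3CB (0.0495), SETD2 to MTR (0.0617) and ATXN1L (0.0718), BAP1 to CCNT1 (0.0524) and GID8 (0.0533), and ARID1A to MTOR (0.102) and ANAPC1 (0.107). For VHL the smallest distances, those of ZNF185 at 1.22 and SMG1P3 at 1.29, were far larger than for the other 6 genes. VHL itself was below a mean of 100 in 769-P, unlike the genes it was compared with. With so few reads its values spread widely between libraries of the same condition. The distances therefore cannot show whether any gene follows it.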

How the data were processed

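RNA from 769-P and CAKI-1 cells was sequenced in 8 libraries, which were grouped by the line and treatment in their labels. The submitters' processing notes name Trim Galore, TopHat2 2.1.0, SAMtools 1.3.1, HTSeq 0.6.0, DESeq, DESeq2 and the build hg38. The annotation release and strand setting are not given in the sources used here. The authors deposited a signal per gene and library in 1 table per line, with 25431 and 24190 Ensembl identifiers, namely the reads of a gene over the library's size factor. Dividing by the step of 1 read gave whole reads for 100% of values, within 0.01 reads, and the factors equal the median-of-ratios factors of each table. Reads were recovered from these steps for levels and for count tests. Reads on listed genes, 30979773 to 64256834 per library, set the precision.

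Symbols, places and merged exon lengths came from GENCODE 29, which matched 25032 and 23881 identifiers, and promoter windows from RefSeq. Genes with a mean of at least 1 were tested within each line with limma 3.58.1 (lmFit, eBayes with trend) in R 4.3.3 on log2(value + 1), at a Benjamini-Hochberg adjusted p of 0.05 with no fold limit. The interaction term came from 1 limma fit over 8 libraries. No replicate block was used. The labels do not say that equal numbers pair libraries. Deviations of equal numbers had correlations of -0.09 and 0.06, which cannot settle this with 2 libraries per condition. The members and lists were chosen with earlier results of these data known. Named from each list, per line, were up to 2 called genes with the largest rise and 2 with the largest fall among those with a mean of at least 100. A gene named in one line has its values given in the other where it helps. HIF1A beside EPAS1 and AMOTL1 beside its relatives were named after their values were seen. For each of the 7 genes the 2 nearest in pattern were named. Alternatives were pseudocounts of 0.5 and 5, no filter and a mean of at least 10, median centring, quantile normalization, an adjusted p of 0.01, a fold of 1.5, the spread of all 8 libraries, a replicate block, edgeR 4.0.16 and DESeq2 1.42.0 on recovered reads, reads thinned to 30979773, leaving out each library, and for levels the longest transcript. Tests were tried on simulated data.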

Additional observations from a re-analysis of the deposited data

Results flagged for a closer look

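The BCAA effect on FH differed between the lines by 0.51 on the log2 scale (limma interaction term), the single one of the 7 tumour suppressor genes with such a difference, being a larger rise in 769-P. Of all genes tested in both lines, 21.1% had such a difference. Most named genes of the lists were picked for a large called change in 1 line, which favours a difference between lines. Their number is therefore no measure of the lists. The same test gave a difference for 21 of the named genes, each as the log2 fold change in 769-P minus that in CAKI-1. It was above 0 for the elongin subunit ELOB (0.36), the SWI/SNF subunits SMARCD3 (0.82) and SMARCE1 (0.57), the H3K36 reader MORF4L1 (0.35), the TCA cycle enzymes IDH2 (0.60) and SUCLG1 (0.78), and WWTR1 (0.53), AMOT (0.64) and AMOTL1 (0.64) of the Hippo pathway. It was below 0 for EPAS1 (-2.50) and the HIF targets VEGFA (-2.81) and NDRG1 (-1.83), for the H3K36 genes ZMYND11 (-0.26) and NSD2 (-0.58), and for OGT (-0.89), PCGF5 (-0.67) and MBD6 (-0.34) among BAP1 partners and H2A ubiquitylation. The Hippo genes AMOTL2 (-1.01), FRMD6 (-0.77) and STK3 (-0.33) and the mTORC1 regulator TSC2 (-0.48) were also below 0. Depth went with condition in 769-P and not in CAKI-1, and its part in these differences was tested only by thinning, which left FH called.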

How the results depend on the processing

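FH and NF2 were the 2 tumour suppressor genes called in each line under both other pseudocounts, both other filters, both scalings, edgeR, DESeq2, thinned reads and the spread of all 8 libraries. The replicate block changed no call among the 7 genes, with a blocked limma adjusted p of 0.00236 for NF2 in 769-P and 0.00169 for FH in CAKI-1. With a fold of at least 1.5 also asked, 1 of the 7 remained in 769-P (FH), 0 in CAKI-1 and 0 for the difference between lines, by construction of that threshold. It also left 1984 genes higher and 1911 lower in 769-P, 725 and 481 in CAKI-1, and 1844 with a difference between lines. Of the lists it left 8 higher and 19 lower in 769-P and 2 and 3 in CAKI-1. An adjusted p of 0.01 gave 1417 higher and 1012 lower in CAKI-1, 2379 differences between lines, and 6 and 3 genes of the lists in CAKI-1. Of the lists in CAKI-1, median centring gave 28 higher and 7 lower, quantile normalization 7 higher (and 1417 over all genes), and the spread of all 8 libraries 31 higher. The cause of these shifts was not tested.

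Signs near 0 turned under 1 setting for VHL in CAKI-1 (0.014) and BAP1 in 769-P (0.017) with median centring, BAP1 in CAKI-1 (-0.0072) with quantile normalization, and the difference between lines of ARID1A (-0.014) with thinned reads. The same held for SMARCE1 (0.0052) and FRMD6 (0.032) in CAKI-1 with median centring, PCGF5 (-0.027) and AMOTL1 (-0.0023) in CAKI-1 with quantile normalization, and STK3 in 769-P with median centring (0.032), edgeR (0.014) and thinned reads (0.032). None of these values passed the test.

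With 1 library left out, fewer residual degrees of freedom remain. In CAKI-1 limma then called 0 genes in all 4 fits (2236 to 2879 higher and 1848 to 2711 lower at an unadjusted p under 0.05), so 0 of the 7 and 0 of the lists. In 769-P it called 1173 to 1632 higher and 658 to 1456 lower, 1 of the 7 in each fit (FH), and 10 to 17 list genes higher and 12 to 27 lower. For the difference between lines it called 2917 to 4113 genes and 1 to 2 of the 7. The log2 fold change then ranged from -0.028 to 0.23 in 769-P and from -0.044 to 0.20 in CAKI-1 for ARID1A. It ranged from -0.028 to 0.18 for HCFC1 and -0.028 to 0.011 for STK3 in 769-P. In CAKI-1 it ranged from -0.079 to 0.0073 for SMARCE1, -0.32 to 0.11 for ASH1L, -0.097 to 0.16 for AMOT, -0.13 to 0.18 for AMOTL1, -0.14 to 0.017 for HIF1A, -0.065 to 0.048 for FRMD6 and -0.60 to 0.21 for KMT2D. The difference between lines ranged from -0.15 to 0.057 for PBRM1 and -0.11 to 0.15 for ARID1A. Depth limits what can be said of VHL in 769-P, with at most 22 reads a library.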
